A study of Rattus norvegicus with 48 samples.

Results

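The comparison described here is between lungs of rats that had breathed vapor of oil on 16 days and lungs of rats that had breathed filtered air on the same 16 days, all taken 28 days after the last exposure. The members are the 12 lung libraries with those labels, 6 oil vapor and 6 air, among the 48 of the series, and all genes of the table were examined. The animals were male Sprague-Dawley rats of about 200 to 250 g, an outbred strain, exposed with the whole body in a chamber for 6 hours a day, 4 days a week, over 4 weeks. The oil vapor groups received 300 ppm and the air groups 0 ppm. The labels do not give the age of the animals, the origin of the oil or which animals shared a cage. The other groups used below are the 12 libraries taken 1 day after the same 16 exposures, and the 12 taken 28 days after 1 exposure day. Each library came from a piece of lung of 1 animal, so the spread between libraries holds the spread between animals, between pieces of lung and between preparations.

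Inhaled hydrocarbon vapor reaches the airway and alveolar lining first. Club cells and alveolar cells carry the cytochrome P450 enzymes that oxidise such compounds, alveolar macrophages take up lipid and debris, and surfactant from alveolar type 2 cells keeps the air spaces open. Lasting injury of the rat lung is usually followed through mucous cells, collagen and elastin genes, inflammatory cells and cell division, and these groups were examined here. Lung pieces also hold blood, and may hold heart muscle or other tissue, so transcripts typical of erythroid cells, platelets, ventricle, atrium, liver and brain were set apart.

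The total of gene counts per library ran from 4290720 to 6082430 for air and from 4754160 to 6545860 for oil vapor. A count of 3 corresponds to between 0.458 and 0.699 CPM (normalised counts per mega-count of the library), which sets the floor of detection; such limits cover counting error only. The libraries carried strong lung markers: the surfactant gene Sftpc lay between 5613 and 7660 CPM and the alveolar type 1 marker Ager between 1429 and 1831 CPM over the 12 libraries. Symbols of ribosomal RNA took between 0.513% and 3.03% of all counts under air and between 0.408% and 1.45% under oil vapor. The 30 pairs of libraries within a group each differed by far more than counting noise, with a chi-square of 2.6 to 12 per gene.

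A feature of the libraries touched all that follows. When animals were ranked by number, each had a counterpart of equal rank in the group with the same treatment and time of the 1-exposure schedule, which gave 24 pairs of different animals over the series. For most genes the deviations of the paired animals from their group means were nearly unrelated: the median r over the 15005 genes tested was 0.105, with quartiles of -0.0683 and 0.283. For 250 genes r was above 0.8, and for another 868 between 0.5 and 0.8. Myh7, the slow myosin heavy chain of heart muscle, shows what this looked like in the counts. The air animals numbered 82, 83, 84, 86, 87 and 88 held 23, 57, 901, 810, 285 and 233 counts of Myh7, and the paired animals of the other schedule 13, 41, 941, 703, 235 and 251. Alas2, the heme synthesis enzyme of red cell precursors, held 10458, 3424, 3170, 5054, 4402 and 13463 counts in the same air animals and 9492, 3203, 2796, 4577, 4025 and 12412 in their partners. Pairs therefore agreed closely in counts that varied many-fold between animals of the same group. The labels describe the paired libraries as different rats, and the origin of the match was not tested. For such genes the 1-exposure schedule gives no independent replication of the 16-exposure schedule.

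**Figure D1:**
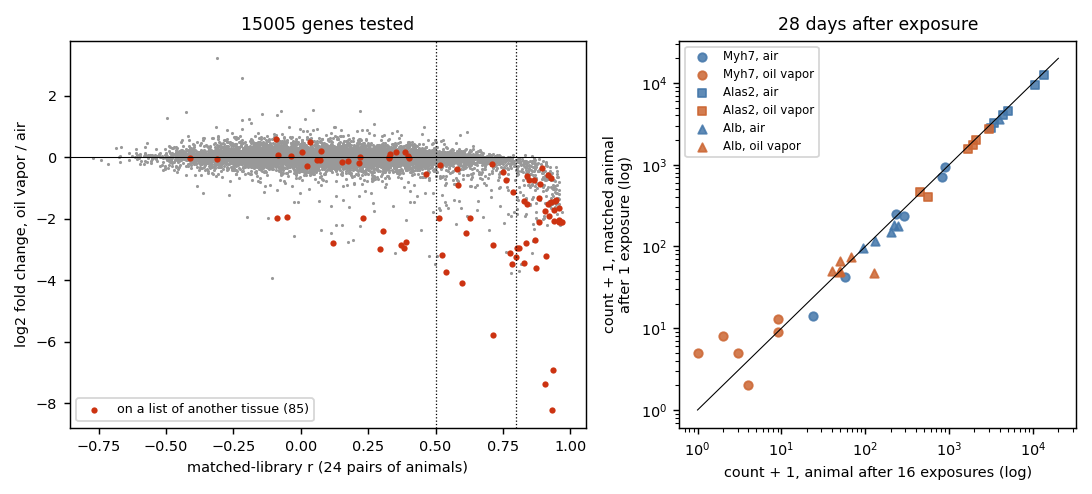
Left: each point is 1 of the 15005 genes, with the correlation over 24 rank-matched pairs of animals on the horizontal axis and the log2 fold change of oil vapor against air, 28 days after 16 exposure days, on the vertical axis; red points are genes on a list of another tissue and dotted lines stand at 0.5 and 0.8. Right: counts plus 1 on log axes of Myh7, Alas2 and Alb in each 28-day animal after 16 exposures against its partner after 1 exposure, with the line of equality. Genes with r above 0.8 lie almost wholly below 0, and the paired counts lie along the line of equality.

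No gene passed the threshold. With edgeR's quasi-likelihood test and Benjamini-Hochberg adjustment over 15005 genes, 0 genes were called at an adjusted p below 0.05 (0%), and the smallest adjusted p was 0.663. At an unadjusted p below 0.05 there were 707 genes (4.71%), of which 388 (2.59%) were higher and 319 (2.13%) lower in oil vapor. The median log2 fold change over all genes was 0.01. The precision was enough to bound most genes: the 95% interval of the fold change lay within 2-fold in either direction for 13885 genes (92.5%) and within 1.5-fold for 11468 (76.4%). These intervals are for single genes and are not adjusted for their number.

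The count of calls depended on which libraries and which tool set the spread. With the 12 libraries of this comparison alone, edgeR called 57 of 14455 genes tested, 2 higher and 55 lower. Of the 57, 52 had a matched-library r above 0.5, against 1118 of the 15005 genes of the main fit. The shallow library of animal 43, an oil vapor animal of the 1-day group, enters only the estimate of the spread. Without it 10 of 15090 genes were called, all lower, 9 of them with r above 0.5. DESeq2 called 21 of 15005 genes, all lower, and 16 of them had r above 0.5. On a list of another tissue were 10 of the 21, led by Myh7, Myl3, Mb and Myl2 of heart muscle. With all genes on such lists removed, 14920 genes were left to test. The 2 higher genes in the fit of 12 libraries were Fzd4, a Wnt and norrin receptor of endothelium, and Tspan18, a tetraspanin; both were chosen for mention after their values were seen. Fzd4 lay at 85 to 103 CPM in air and 107 to 123 CPM in oil vapor, and Tspan18 at 31.4 to 40.7 CPM and 43.1 to 54.1 CPM, so the groups of both genes did not overlap.

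Genes that matched between the schedules and genes that did not gave different pictures. Among the 13887 genes with r of at most 0.5, 45.3% were lower in oil vapor, the median log2 fold change was 0.01, and 4.54% reached an unadjusted p below 0.05. Among the 868 genes between 0.5 and 0.8, 68.3% were lower. Among the 250 genes above 0.8, 248 (99.2%) were lower, with a median of -0.70. The groups of 6 animals did not overlap for 18 genes with oil vapor above air (0.12% of genes tested) and for 121 genes with oil vapor below air (0.806%). All 18 of the former had r of at most 0.5, against 37 of the 121 latter. Over all genes it was 13887 of 15005, so the count for the former was near that share.

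Heart muscle of the ventricle was the list with the lowest values. All 19 of its tested genes were lower in oil vapor, 19 of 19 at an unadjusted p below 0.05 against 2.13% of all genes, and the median log2 difference was -2.79. None was called by edgeR in the fit of 24 libraries, whereas DESeq2 called Myh7, Myl3, Mb and Myl2 among others. Myh7 lay at 4.05, 54.2 and 195 CPM (lowest, median, highest) in air and at 0, 0.472 and 1.44 CPM in oil vapor, with no overlap; its log2 fold change was -6.93 (SE 1.54). Mb, the oxygen store myoglobin, lay at 8.62 to 349 CPM in air and 0.179 to 5.04 CPM in oil vapor. Air animals 84 and 86 held the most Myh7, at 191 and 195 CPM. Summed over the list, air ranged from 226 to 2220 CPM and oil vapor from 58.7 to 316 CPM.

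The list for heart muscle of the atrium and of the pulmonary vein wall, which is part of the rat lung itself, did not share this. Of its 7 tested genes 3 were higher and 4 lower, with a median of -0.02, and none reached an unadjusted p below 0.05. Myl7, the atrial light chain, lay at 4.65, 11.5 and 26.9 CPM in air and 0.717, 10.8 and 29.7 CPM in oil vapor, and the groups overlapped throughout. Its matched-library r was -0.31, and its log2 difference ran from -0.564 to 0.321 when single animals were left out. Gja5, the connexin of arterial endothelium and atrium, lay at 74.5 to 92.8 CPM in air and 86.4 to 96.7 CPM in oil vapor.

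Transcripts of liver were lower in oil vapor, by an amount that depended largely on 1 air library. All 18 tested liver genes were lower in oil vapor (13 at an unadjusted p below 0.05, against 2.13% of all genes), with a median of -2.77; without air animal 82 the median was -0.82. Alb, serum albumin, lay at 681 CPM in air animal 82, between 21.8 and 51.3 CPM in the remaining 5, and at 7.49, 8.83 and 26.2 CPM in oil vapor. Ttr, the thyroid hormone carrier transthyretin, lay at 0.486 to 33.2 CPM in air and 0.307 to 0.960 CPM in oil vapor. The fitted difference of Alb was -3.61 (SE 1.03), and -1.62 without animal 82.

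Red cell and platelet transcripts were lower as well, with wide errors. The median over 17 erythroid genes was -1.65, 16 of them lay below 0, and 14 had a matched-library r above 0.8. Alas2 lay at 555, 1118 and 2437 CPM in air and 80.7, 311 and 620 CPM in oil vapor; the lowest air animal was under the highest oil vapor animal, and the log2 fold change was -2.10 (SE 1.06). Hbb, beta globin, lay at 1206 to 3073 CPM in air and 614 to 1188 CPM in oil vapor, with no overlap; reads of near-identical globin copies may be shared. Of 13 platelet genes 12 were lower, with a median of -1.34, among them the platelet receptor Clec1b at -2.08 (SE 0.96). Of the 13 platelet genes 8 had a matched-library r above 0.8. In bulk libraries fewer cells of a type and less RNA per cell cannot be told apart. Both readings take the counts as those of the animal's own lung, and the origin of the match between paired animals was not tested. At 1 day after the last exposure the same lists pointed the other way: the medians were 1.85 for erythroid genes, 1.29 for platelet genes and 2.50 for liver genes, all higher in oil vapor. The 1-day oil vapor group held animal 43, whose library of 1537183 counts carried 30019 counts of Alas2. Its partner after 1 exposure, animal 5, held 27026 counts of Alas2 in a library of 4742244 counts. The rest of the 1-day oil vapor group after 16 exposures held 491 to 4768 counts of Alas2, against 1604 to 12603 in air. Counts of Alb were 1092 in animal 43, 89 to 1791 in the rest and 47 to 265 in air. Medians at 1 day without animal 43 were not computed. The 5 tested brain genes had a median of -0.11 at 28 days.

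Rsad2, an antiviral interferon-inducible enzyme, had the lowest log2 fold change of the interferon list. It lay at 251 to 677 CPM in air and 40.5 to 173 CPM in oil vapor with a matched-library r of 0.96, and the log2 fold change was -2.22 (SE 0.98). Over the 31 interferon genes the median was -0.09, with 24 lower and 7 higher. Of the 31 genes 3 had a matched-library r above 0.5, and 1, Rsad2, had an r above 0.8. With tissue scores as covariates 21 of 31 were lower and the median was -0.08. Ifi44l, an interferon-induced gene with an r of -0.12, lay at 28.8, 34.8 and 38.3 CPM in air and 22.3, 26.4 and 30.2 CPM in oil vapor, a log2 difference of -0.35 (SE 0.11). Bst2, the virus-tethering protein tetherin, had a difference of 0.02 (SE 0.14). At 1 day after exposure it was 0.75, in a group that held the shallow library of animal 43. It was not called in edgeR's test of 28 days against 1 day on 24 libraries, described below.

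Among genes on no list of another tissue, the 10 with the smallest p that were higher in oil vapor were C2cd2l, Znrf3, Fhl3, Traf4, Mmp19, Alox5, Rxra, Atxn7l2, Trib1 and Dclk1. None passed edgeR's test, and their log2 differences lay between 0.24 and 0.55. C2cd2l, a lipid transfer protein between endoplasmic reticulum and plasma membrane, lay at 32, 34 and 38.6 CPM in air and 39.1, 41.4 and 43 CPM in oil vapor, a log2 difference of 0.26 (SE 0.07). Znrf3, a ubiquitin ligase that removes Wnt receptors, lay at 10.1, 12.4 and 13.9 CPM in air and 14.2, 15.2 and 17.9 CPM in oil vapor, a difference of 0.35 (SE 0.10). Dclk1, a microtubule-associated kinase, lay at 29.8, 37.3 and 39.7 CPM and 42.0, 43.6 and 51.6 CPM, a difference of 0.33 (SE 0.10). The 6 oil vapor animals of these 3 genes all lay above the 6 air animals, as they did for 18 of 15005 genes tested (0.12%). The 3 genes were picked for a small p from the same values, so this separation adds no support.

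Alox5, the lipoxygenase that starts leukotriene synthesis in macrophages and granulocytes, lay at 35.2, 39.7 and 49.5 CPM in air and 45.2, 53.8 and 54.9 CPM in oil vapor. Only air animal 86, at 49.5 CPM, lay within the range of the oil vapor animals. Mmp19, a matrix metalloproteinase, lay at 11.4 to 17 CPM in air and 14.2 to 22.5 CPM in oil vapor, a log2 difference of 0.49 (SE 0.14). Rxra, the retinoid X receptor that pairs with many nuclear receptors, lay at 39.6 to 47 CPM and 46.8 to 53.6 CPM, with an overlap of under 1 CPM. Fhl3, an actin-binding LIM protein, had a difference of 0.55 (SE 0.15), Traf4, an adaptor of epithelial signalling, of 0.40 (SE 0.11), and Trib1, a pseudokinase of macrophage differentiation, of 0.37 (SE 0.11). Tissue scores for erythroid, ventricle, liver and brain transcripts, entered as covariates, left these 10 differences between 0.12 and 0.64.

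**Figure D2:**
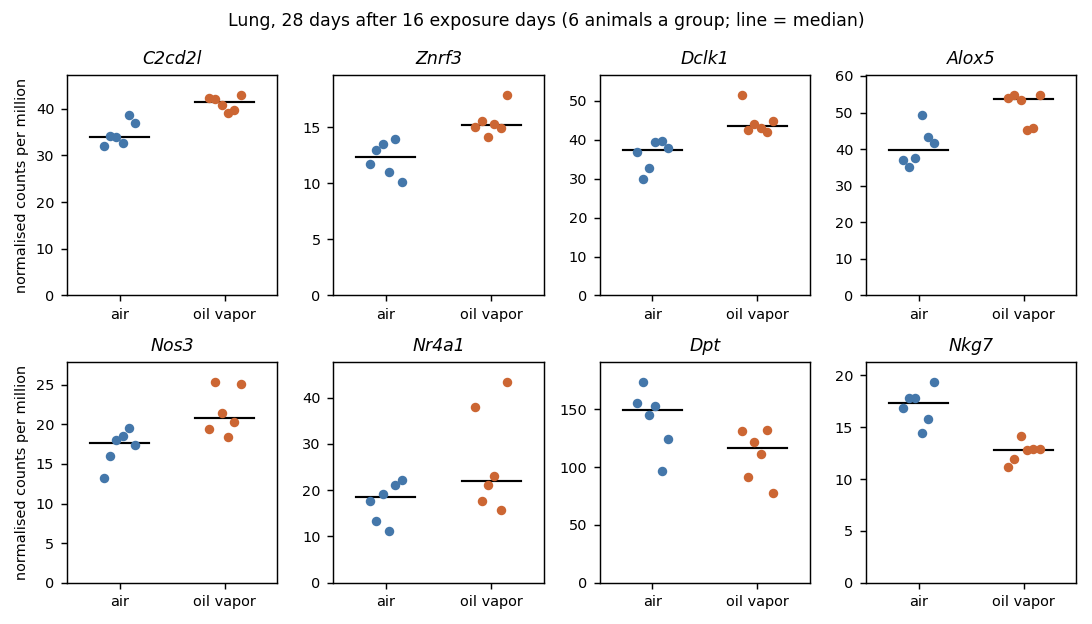
Normalised CPM in each of the 6 air and 6 oil vapor animals for 8 genes, with a line at each group's median; all vertical axes start at 0. The oil vapor animals lie wholly above the air animals for C2cd2l, Znrf3 and Dclk1 and wholly below them for Nkg7, and the groups overlap for Alox5, Nos3, Nr4a1 and Dpt.

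The 10 genes with the smallest p that were lower in oil vapor were Pfkm, Eef1a2, Got1, Trim72, Myom1, Plin4, Gbp1, Klhl31, Pgam2 and Casq2, and none passed in edgeR's fit of 24 libraries. DESeq2 called Pfkm, Eef1a2, Got1, Myom1, Pgam2 and Casq2, edgeR called Trim72 without the library of animal 43, and edgeR called Gbp1 with the 12 libraries alone. Most have known roles in striated muscle although they were on no list of another tissue: Pfkm is the muscle phosphofructokinase, Pgam2 the muscle phosphoglycerate mutase, Casq2 the calcium store of the heart, Myom1 a protein of the sarcomere and Trim72 a membrane repair protein of muscle. Pfkm lay at 25, 30.3 and 45.3 CPM in air and 19.6, 21.9 and 23.8 CPM in oil vapor, a log2 difference of -0.57 (SE 0.13) and no overlap. Casq2 lay at 4.54 to 34.5 CPM in air and 1.11 to 6.31 CPM in oil vapor, a difference of -2.38 (SE 0.62). Pfkm was highest in air animals 84 and 86, the animals with the most Myh7. With the 4 tissue scores as covariates the differences of the 10 genes lay between -0.20 and 0.06, and without air animals 82, 84 and 86 that of Pfkm was -0.26.

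Further down, and named after their values were seen, stood Fpr3, Pycard and Klrc3, whose matched-library r lay between 0.08 and 0.31. They were picked from a stretch of the ranking that also held Fabp3, Cpt1b, Art3, Hfe2, Hrc, Gnat2 and Rpl36al, all with r of at most 0.5. Fabp3, Cpt1b, Hfe2 and Hrc differed by -3.48, -1.11, -2.77 and -1.635. With tissue scores as covariates they differed by 0.49, 0.23, 0.18 and -0.28, and Fpr3, Pycard and Klrc3 by -0.91, -0.16 and -0.71. Pycard, the adaptor ASC of the inflammasome, lay at 19.5, 20.9 and 22.3 CPM in air and 14, 15.9 and 17.7 CPM in oil vapor, with no overlap and a log2 difference of -0.37 (SE 0.11). Fpr3, a formyl peptide receptor of phagocytes, lay at 1.81 to 4.65 CPM in air and 0.922 to 1.8 CPM in oil vapor. Klrc3, a receptor of natural killer cells, had a difference of -0.90 (SE 0.26) with overlapping groups.

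Of 49 lists with at least 5 tested genes, 31 had a median of the opposite sign once the scores were in the fit. The epithelium of the air spaces showed small differences. Of 19 alveolar type 2 genes 17 were higher in oil vapor, with a median of 0.12 against 0.01 for all genes; with tissue scores as covariates 7 of 19 were higher and the median was -0.02. Sftpc lay at 5613, 6376 and 7052 CPM in air and 6432, 6812 and 7660 CPM in oil vapor, a log2 difference of 0.13 (SE 0.13). Sftpa1, a surfactant lectin, differed by 0.07 (SE 0.11). Nkx2-1, the transcription factor of the lung epithelium, lay at 58.6, 64.2 and 75.5 CPM and 69.0, 80.1 and 96.4 CPM, a difference of 0.30 (SE 0.13).

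Alveolar type 1 genes had a median of 0.03, with 11 of 15 higher; with tissue scores as covariates 3 of 15 were higher and the median was -0.11. Cldn18, the tight junction claudin of alveolar cells, lay at 285 to 482 CPM in air and 365 to 502 CPM in oil vapor, a log2 difference of 0.26 (SE 0.11). Ager differed by 0.09 (SE 0.12) and Hopx, a homeodomain protein of type 1 cells, by -0.11 (SE 0.08). Tight junction genes as a group had 13 of 16 higher and a median of 0.07. Marveld2, which seals the contacts where 3 cells meet, differed by 0.41 (SE 0.15).

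Airway cells were little different apart from mucous genes. Of 11 club cell genes 4 were higher, with a median of -0.04, and the club cell secretoglobin Scgb1a1 lay at 1774, 2321 and 2596 CPM in air and 1926, 2232 and 2473 CPM in oil vapor. Its log2 difference was -0.02, with a 95% interval from -0.28 to 0.23. Ciliated cell genes were split, 10 higher and 10 lower of 20, with a median of -0.00146; the axonemal genes Ccdc39 and Dnai2 differed by -0.22 (SE 0.16) and 0.18 (SE 0.19).

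All 7 mucus and goblet cell genes were higher in oil vapor, with a median of 0.46, and none was called. Muc5b, the main gel-forming mucin of small airways, lay at 13 to 18.2 CPM in the 6 air animals, and at 15.2, 43, 18.3, 83.1, 34.6 and 15.4 CPM in oil vapor animals 89, 91, 92, 93, 94 and 96. Animals 91, 93 and 94 lay above every air animal and the other 3 were near the air range. Scgb3a1, a secretoglobin of airway secretory cells counted in the club cell list, was high in the same 3 animals, at 33.0, 33.0 and 28.9 CPM; the other oil vapor animals held 0.922 to 6.87 CPM and the air animals 1.92 to 21.0 CPM. Without animal 93 the median of the mucous list was 0.13 and Muc5b differed by 0.77, against 1.25 (SE 0.70) with it. Fcgbp, a mucus-binding protein, lay at 1.99 to 5.51 CPM in air and 3.65 to 6.85 CPM in oil vapor.

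Endothelial genes leaned higher and some fibroblast genes lower. Of 21 endothelial genes 16 were higher, with a median of 0.08, and 3 of 21 reached an unadjusted p below 0.05, against 2.59% of all genes: Nos3, Gpihbp1 and Cdh5. Nos3, the endothelial nitric oxide synthase, lay at 13.2, 17.7 and 19.5 CPM in air and 18.4, 20.9 and 25.3 CPM in oil vapor, a log2 difference of 0.35 (SE 0.13). Gpihbp1, which anchors lipoprotein lipase to capillaries, differed by 0.47 (SE 0.21), and the adhesion protein Cdh5 by 0.19 (SE 0.09). With tissue scores as covariates the endothelial median was -0.17. Lymphatic endothelial genes had 6 of 7 higher and a median of 0.12.

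Of 15 fibroblast genes 9 were higher, with a median of 0.02, but the 4 with the smallest p were all lower: Dpt, Dcn, Lum and Col14a1, small proteins and a collagen of the loose matrix around airways and vessels. Dpt, dermatopontin, lay at 96.2, 149 and 174 CPM in air and 77.6, 116 and 132 CPM in oil vapor, a log2 difference of -0.34 (SE 0.14). Dcn, decorin, differed by -0.36 (SE 0.16), Lum, lumican, by -0.29 (SE 0.14), and Col14a1 by -0.28 (SE 0.13). Efemp1, an elastic fiber protein, lay at 116 to 176 CPM and 108 to 134 CPM, a difference of -0.27 (SE 0.08). None had a matched-library r above 0.04.

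No list tied to scarring held a gene called by edgeR in the fit of 24 libraries. Of 21 collagens 14 were higher (median 0.06), of 18 elastic fiber and crosslinking genes 15 (median 0.09), and of 19 genes of fibrosis and matrix turnover 16 (median 0.09). With tissue scores as covariates the higher genes numbered 1 of 21 (median -0.16), 4 of 18 (median -0.13) and 8 of 19 (median -0.03). Smooth muscle and pericyte genes had a median of 0.08 with 13 of 15 higher, against -0.17 and 2 of 15 with the scores; Des, the desmin filament shared with heart muscle, was lower by -0.37 (SE 0.15) with an r of 0.63. The 10 mesothelial genes had a median of -0.01, and Upk1b, a surface protein of mesothelium, differed by -0.36 (SE 0.26).

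No immune cell list held a gene called by edgeR in the fit of 24 libraries. Alveolar macrophage genes had a median of 0.05, with 10 of 16 higher; Cd68, a lysosomal protein of macrophages, lay at 30.5, 33.3 and 41.5 CPM in air and 36.9, 39.8 and 48.8 CPM in oil vapor, a log2 difference of 0.28 (SE 0.13). Itgax, the integrin CD11c, lay at 30.0 to 45.2 CPM in air and 30.7 to 102 CPM in oil vapor, a difference of 0.79 (SE 0.40). Interstitial macrophage and monocyte genes had a median of -0.09, with 9 of 11 lower (0.11 and 4 of 11 with the scores), and the scavenger receptor Cd163 differed by -0.31 (SE 0.23). Genes of lipid-laden macrophages had a median of -0.03, with 12 of 19 lower.

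All 13 natural killer and cytotoxic genes were lower in oil vapor, with a median of -0.40, and 4 of 13 reached an unadjusted p below 0.05, against 2.13% of all genes in this direction: Eomes, Gzmm, Nkg7 and Klrd1. Nkg7, a protein of cytotoxic granules, lay at 14.4, 17.3 and 19.4 CPM in air and 11.2, 12.8 and 14.2 CPM in oil vapor, with no overlap and a log2 difference of -0.42 (SE 0.16). Eomes, the transcription factor of these cells, lay at 4.03, 5.51 and 9.59 CPM and 2.88, 3.77 and 4.60 CPM, a difference of -0.67 (SE 0.22). Gzmm, a granzyme, differed by -0.66 (SE 0.23) and Klrd1, the receptor CD94, by -0.87 (SE 0.35). Klrd1 had a matched-library r of 0.57 and was called by edgeR with the 12 libraries alone. Of the 13 genes 3 had r above 0.5, against 1118 of 15005 genes tested. The summed level of the list ran from 195 to 259 CPM in air and from 165 to 202 CPM in oil vapor. Leaving out each animal in turn kept all 13 genes lower, with medians from -0.45 to -0.29; with the tissue scores as covariates 8 of 13 were lower and the median was -0.09.

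T cell genes leaned the same way, with 17 of 19 lower and a median of -0.16. Cd3g, a chain of the T cell receptor complex, lay at 3.49 to 7.04 CPM in air and 1.8 to 3.84 CPM in oil vapor, and Cd247, its zeta chain, at 10.3 to 17.4 CPM and 7.70 to 10.8 CPM. Cd247 had a matched-library r of 0.80. B and plasma cell genes had a median of -0.01 with 7 higher and 8 lower, and Cd79b, of the B cell receptor, differed by -0.35 (SE 0.25). With tissue scores as covariates 16 of the 19 T cell genes were higher, with a median of 0.22.

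Neutrophil genes were lower in 9 of 11, with a median of -0.17; with tissue scores as covariates 9 of 11 were higher and the median was 0.37. S100a8, a calcium-binding alarmin of neutrophils, lay at 26.2 to 38.6 CPM in air and 15.7 to 25.4 CPM in oil vapor, with no overlap; S100a9, its partner, lay at 70.6 to 120 CPM and 43.6 to 78.8 CPM. Their matched-library r was 0.63 and 0.58, and edgeR called S100a8 with the 12 libraries alone. In a mast cell, basophil and eosinophil list 10 of 13 were higher, with a median of 0.23 that ranged from 0.09 to 0.47 when single animals were left out. Mcpt2, a mast cell protease, lay at 1.58 to 8.88 CPM in air and 1.66 to 13.5 CPM in oil vapor. Genes of antigen presentation by MHC class II were split 5 and 5; RT1-DMb, a peptide loading chain, lay at 1.91 to 13.9 CPM in air and 1.54 to 5.84 CPM in oil vapor, and it belongs to a multigene family whose reads may be shared.

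**Figure D3:**
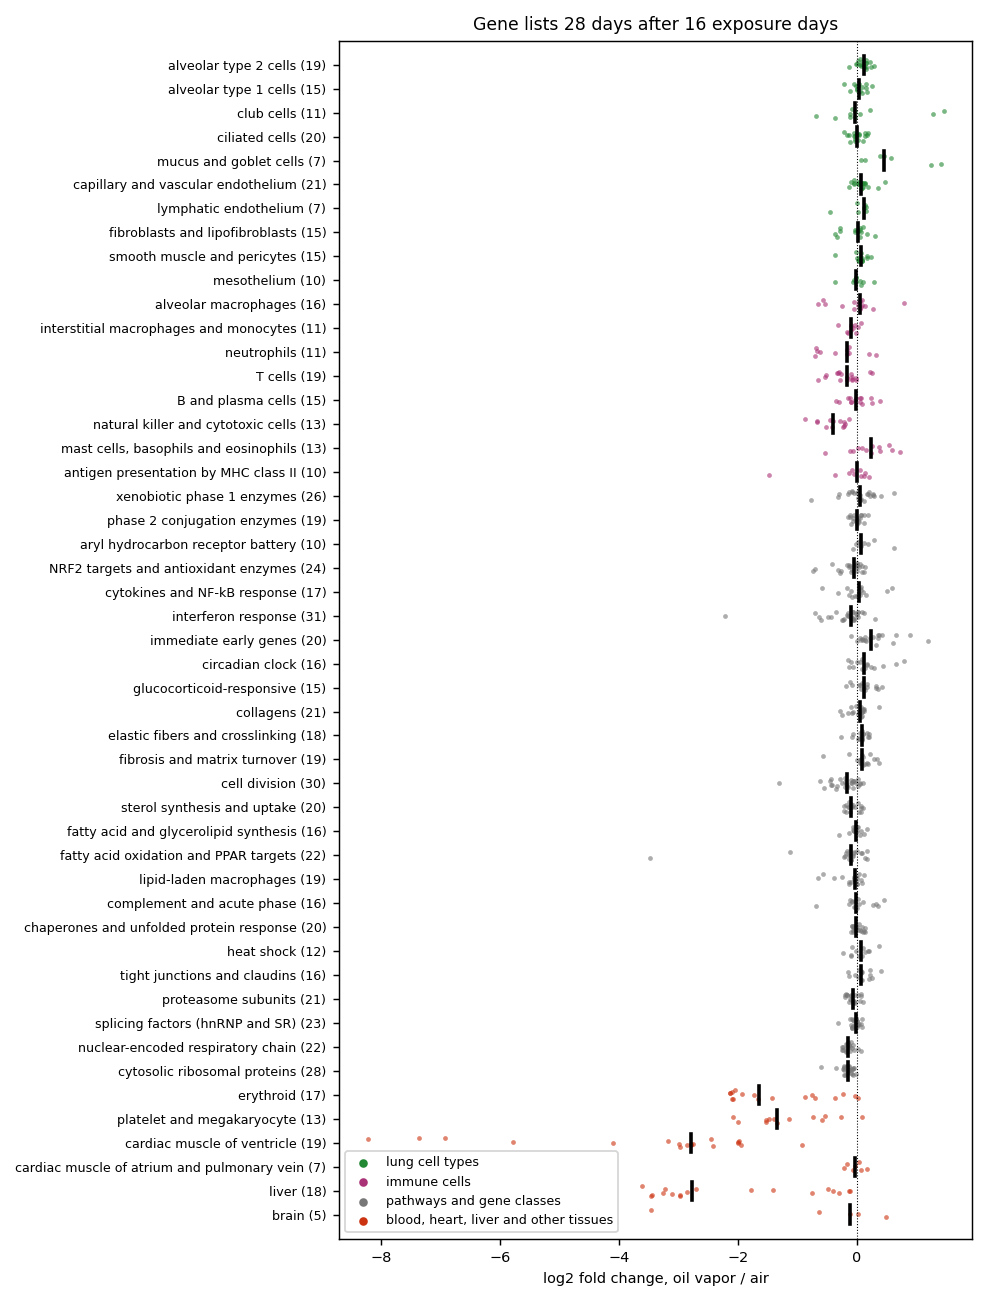
Log2 fold change of oil vapor against air for every tested member (points) of each gene list with 5 or more tested genes, with the list's median as a black bar and the number of tested genes in brackets. Lists of ventricle, liver, erythroid cells and platelets have medians between -2.79 and -1.34, and the medians of lung cell, immune cell and pathway lists lie between -0.40 and 0.46.

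Immediate early genes, many of which code for transcription factors, are transcribed within minutes of a stimulus and are also sensitive to handling of tissue. They were higher in 19 of 20, with a median of 0.25. Fos, Fosb, Nr4a1, Nr4a2 and Ier3, 5 of 20, reached an unadjusted p below 0.05, against 2.59% of all genes in this direction. Nr4a1, an orphan nuclear receptor, lay at 11.3 to 22.3 CPM in air and at 37.9, 17.7, 21.0, 23.1, 15.7 and 43.4 CPM in oil vapor animals 89, 91, 92, 93, 94 and 96. Fos lay at 18.3 to 29.7 CPM in air and at 71.4, 28.2, 31, 21.3, 20.8 and 102 CPM in the same oil vapor animals. Animals 89 and 96 were high in both genes, and in Fosb at 16.3 and 23 CPM against 2.64 to 5.93 CPM in air, while the other 4 overlapped the air animals. Without animal 96 the log2 difference of Fos was 0.50, against 0.90 (SE 0.36) with it, 16 of the 20 genes were higher and the median was 0.17. With tissue scores as covariates 12 of 20 were higher and the median was 0.09.

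The promoters of the Nr4a receptors are shown because both members were among the 5 above; Nr4a1 was high in the same animals as Fos, and Nr4a2 lay at 5.67 to 8.47 CPM in air and 7.91 to 11.5 CPM in oil vapor. The motif TGACG, the core of the site of cAMP-responsive factors, was searched on both strands in the 250 bases before each gene's start, from RefSeq's table of promoters on build GRCr8; it appears as TGACG or, on the other strand, as CGTCA. Of the 22 immediate early genes on the list 15 had a promoter in the table and 10 of these (66.7%) held the motif, against 19% of 27457 promoters of the same length. Fosb, also among the 5 above and not shown, held 0 copies, and Fos and Ier3 were not among the 15 promoters. Nr4a1 (chr7:134259888-134260137, plus strand) held 4 copies and Nr4a2 (chr3:62104888-62105137, minus strand) 1, in capitals below. A match is a description of the letters and not of a bound site.
Nr4a1: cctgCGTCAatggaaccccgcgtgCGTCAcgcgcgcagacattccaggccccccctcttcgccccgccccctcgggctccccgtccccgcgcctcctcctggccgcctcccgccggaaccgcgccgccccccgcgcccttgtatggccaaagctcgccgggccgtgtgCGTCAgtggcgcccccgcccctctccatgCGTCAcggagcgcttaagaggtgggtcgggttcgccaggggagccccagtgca
Nr4a2: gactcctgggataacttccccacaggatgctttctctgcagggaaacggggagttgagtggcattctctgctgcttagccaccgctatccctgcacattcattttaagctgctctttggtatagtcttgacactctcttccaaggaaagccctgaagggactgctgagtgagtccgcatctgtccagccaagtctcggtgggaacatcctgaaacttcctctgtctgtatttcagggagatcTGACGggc

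Cytokine and other stress genes gave little. Of 17 cytokine and NF-kB genes 10 were higher, with a median of 0.03. Ptgs2, the inducible cyclooxygenase, lay at 2.12, 2.97 and 3.95 CPM in air and 3.06, 4.10 and 5.56 CPM in oil vapor, a log2 difference of 0.52 (SE 0.20). In the complement and acute phase list 8 of 16 were higher; Serping1, the C1 inhibitor, differed by 0.36 (SE 0.15) and Lbp, the endotoxin-binding protein, by 0.45 (SE 0.20). Chaperones of the unfolded protein response had a median of -0.00305 and heat shock genes of 0.07. Circadian clock genes had 12 of 16 higher, with Dbp at 0.65 (SE 0.36) and Per3 at 0.44 (SE 0.22). Of the 16 genes 5 had a matched-library r above 0.5, against 1118 of 15005 genes tested. With tissue scores as covariates 7 of 16 were higher and the median was -0.00656. Glucocorticoid-responsive genes had 12 of 15 higher and a median of 0.12, and splicing factors 8 of 23 and a median of -0.02.

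Enzymes of foreign compounds stood close to air. Of 26 phase 1 enzymes 18 were higher, with a median of 0.06, and of 19 conjugation enzymes 11, with a median of 0.01. Cyp2b1, the main P450 of club cells in the rat, lay at 342, 400 and 420 CPM in air. In oil vapor it lay at 370, 395 and 495 CPM. Its difference was 0.08, with a 95% interval from -0.07 to 0.23. At 1 day after exposure it was -0.39, in a group that held the shallow library of animal 43. In edgeR's test of 28 days against 1 day, described below, no gene was called in the fit of 24 libraries. Por, the electron donor of all such P450s, lay at 112 to 130 CPM and 120 to 143 CPM, a difference of 0.20 (SE 0.11). Cyp1a1, induced through the aryl hydrocarbon receptor, lay at 0.704 to 4.08 CPM and 0.384 to 6.10 CPM, near the floor in some animals, so its interval from -0.58 to 1.83 bounds little. Ugt1a6, a glucuronosyltransferase, differed by 0.20 (SE 0.13), and Me1, a target of the antioxidant factor NRF2, by -0.28 (SE 0.15). The 24 NRF2 genes had a median of -0.05. Of these, 8 had a matched-library r above 0.5, against 1118 of 15005 genes tested. With tissue scores as covariates 20 of the 24 were higher and the median was 0.19. The battery of the aryl hydrocarbon receptor had a median of 0.07, with 8 of 10 higher.

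Growth, energy and lipid genes leaned lower. The median over 30 cell division genes was -0.17, with 25 below 0, and Nusap1, a spindle protein, lay at 3.25 to 7.39 CPM in air and 1.98 to 4.16 CPM in oil vapor. Of 22 genes of fatty acid oxidation 16 were lower (median -0.09). The members with the smallest p were Fabp3, at -3.48 (SE 0.94) and called by DESeq2, and Cpt1b, at -1.11 (SE 0.31). With tissue scores as covariates these 2 were at 0.49 and 0.23. Acadvl, the long-chain acyl-CoA dehydrogenase, differed by -0.19 (SE 0.07). Of 20 sterol genes 14 were lower (median -0.09). Fatty acid and glycerolipid synthesis genes had 7 of 16 higher and a median of -0.01. Lpl, lipoprotein lipase, differed by -0.24 (SE 0.11). With tissue scores as covariates the medians of cell division, fatty acid oxidation and sterol genes were 0.24, 0.11 and 0.09.

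All 28 cytosolic ribosomal protein genes were lower, with a median of -0.15, none at an unadjusted p below 0.05. Their summed level ran from 6460 to 7080 CPM in air and from 5910 to 6350 CPM in oil vapor, with no overlap between the groups. Rps23, of the small subunit, lay at 206 to 251 CPM and 177 to 205 CPM. Of the 28 genes 12 had a matched-library r above 0.5, and with tissue scores as covariates 27 of 28 were higher, with a median of 0.25, so the direction depended on whether the scores were in the fit. Of 22 nuclear genes of the respiratory chain 20 were lower (median -0.14), 17 of them higher with the scores; Ndufb3, of complex I, lay at 27 to 32.1 CPM and 23.6 to 26.3 CPM, and Uqcrc1, of complex III, differed by -0.22 (SE 0.09). Proteasome subunits had a median of -0.06, with Psma1 at -0.19 (SE 0.07).

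The difference between oil vapor and air at 28 days was next tested against that at 1 day after the same 16 exposures, which asks whether early differences persist. In edgeR's interaction test 0 of 15005 genes were called (0%), the smallest adjusted p was 0.0563, and 1098 genes (7.32%) had an unadjusted p below 0.05. The 5 genes with the smallest p were Ptprt, Mal2, Cdhr2, Hepacam2 and Alox5, all with a value lower in oil vapor at 1 day and higher at 28 days. Ptprt, a receptor tyrosine phosphatase, had a log2 difference of -0.93 at 1 day and 0.49 at 28 days, a gap of 1.42 (SE 0.24). Its oil vapor animals at 28 days lay at 3.65, 4.68 and 5.99 CPM, and its air animals at 2.75, 3.25 and 4.65 CPM.

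Cdhr2, a protocadherin of the epithelial brush border, had a gap of 1.89 (SE 0.37); its 28-day oil vapor animals lay at 2.69, 3.10 and 3.96 CPM, wholly above the air animals at 0.636, 1.72 and 2.64 CPM. Hepacam2, a cell adhesion protein, went from -0.72 to 0.35, a gap of 1.08 (SE 0.22). Mal2, an epithelial protein of apical transport, went from -0.35 to 0.08, a gap of 0.43 (SE 0.08); at 28 days it lay at 287, 290 and 305 CPM in air and 283, 307 and 326 CPM in oil vapor. Alox5 went from -0.34 to 0.35, a gap of 0.69 (SE 0.14). Leaving out the shallow library of animal 43 gave 3 called genes in this test, with Ptprt and Mal2 at an adjusted p of 0.029 in edgeR; limma-voom with sample weights called 10 genes and DESeq2 47.

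**Figure D4:**
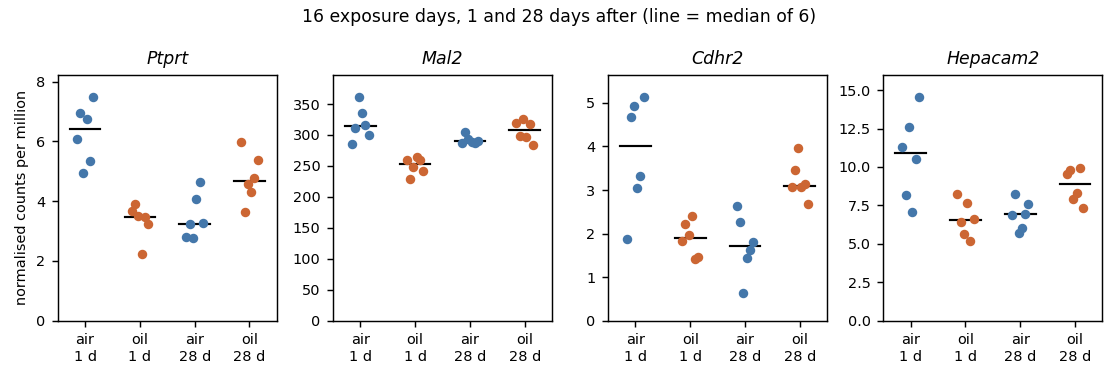
Normalised CPM in each animal, 6 a group, for Ptprt, Mal2, Cdhr2 and Hepacam2 after 16 exposure days, with air and oil vapor at 1 day and at 28 days and a line at each group's median; vertical axes start at 0. The median of oil vapor lies below that of air at 1 day and above it at 28 days for each of the 4 genes.

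Of other genes fixed for mention, Lbp was higher by 0.50 at 1 day and by 0.45 at 28 days, without passing the test at either time. Bst2, given above, was 0.75 at 1 day and 0.02 at 28 days. At 28 days Enpp3, an ectonucleotidase, differed by 0.04 (SE 0.26), Fam13a, a gene tied to lung function, by 0.06 (SE 0.14), and Rph3al, a regulator of secretory vesicles, by 0.03 (SE 0.15). At 1 day these 3 genes were at 0.29, -0.11 and -0.04.

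The difference after 16 exposures was also tested against that after 1 exposure, both at 28 days. In edgeR's interaction test on all 48 libraries 0 of 15322 genes were called (0%), the smallest adjusted p was 0.58, and 777 genes (5.07%) had an unadjusted p below 0.05. The smallest p belonged to Fbxo21, an F-box protein, with log2 differences of 0.21 after 16 exposures and -0.36 after 1, followed by Atxn7l2, a paralog of a chromatin adaptor (0.48 and -0.29), Kcna3, a potassium channel of lymphocytes (0.34 and -0.52), Scamp3, a membrane trafficking protein (0.48 and -0.62), and Scn3b, a sodium channel subunit (0.55 and -0.34). Scn3b lay at 47.5, 64.4 and 86.7 CPM in air and 73.0, 97.5 and 116 CPM in oil vapor after 16 exposures. Immediate early genes were higher in 19 of 20 after 16 exposures and in 1 of 20 after 1 exposure, with medians of 0.25 and -0.23. No gene was called by edgeR in this test of schedules. After 16 exposures Fos, Fosb and Nr4a1 were high in oil vapor animals 89 and 96. With tissue scores as covariates 12 of 20 genes were higher. At 1 day after the same 16 exposures 18 of 20 were higher, with a median of 0.29. With the 24 rank-matched pairs of animals as a block, a fit chosen after seeing the data, edgeR also called 0 genes, with 913 at an unadjusted p below 0.05. After 1 exposure the medians of liver, erythroid, platelet and ventricle genes were -2.57, -1.93, -1.35 and -1.54, against -2.77, -1.65, -1.34 and -2.79 after 16, in animals whose counts of these genes were paired as described above.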

How the data were processed

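Total RNA from a piece of lung of each animal was depleted of ribosomal RNA and 1 µg was made into a stranded library with 12 PCR cycles, per the labels' protocols. The build was Rnor_6.0 and the tools HTSeq 0.6.1, SAMtools 1.8, HISAT2 2.1.0, Trimmomatic 0.35 and bcl2fastq 2.19, per the submitters' processing notes; the annotation and strand setting are not given in the sources used here. The authors deposited raw counts of 30045 gene symbols, without molecular identifiers, in 1 table per schedule; 5463 symbols were 0 in all 48 libraries.

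Counts were tested with edgeR 4.0.16 in R 4.3.3 (TMM, filterByExpr, robust quasi-likelihood fit, two-sided, Benjamini-Hochberg over all genes tested, adjusted p below 0.05) on the 24 libraries of the 16-day schedule, or on 48 for the comparison of schedules. Levels are TMM-normalised CPM over the 48 libraries. Scripts were tested on simulated data. Alternatives used DESeq2 1.42.0, limma 3.58.1 and sva 3.50.0; tissue scores are 4 per-library means of log2 CPM (prior count 2). The matched-library r is Pearson's r over 24 pairs of log2 CPM centred within groups, with thresholds of 0.5 and 0.8 chosen after seeing the data.

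Named genes needed a symbol and a mean of at least 1 CPM: the 10 with the smallest p in each direction outside lists of other tissues, 2 to 4 members of each list, a fixed set and 5 per interaction. Members and lists were chosen with earlier results of these data known. Genes that share sequence or overlap may share reads. Of the symbols 19073 matched RefSeq symbols and 2409 a synonym.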

Additional observations from a re-analysis of the deposited data

Results flagged for a closer look

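Among the named genes, the values of 1 animal stood apart from the other 5 of its group in 9 of 210 groups of 6 (4.29%; Dixon's test on log2 CPM), and chance alone flags about 1 in 20 groups. Alb was apart in both groups, at 681 CPM in air animal 82 against 21.8 to 51.3 CPM in the others, and at 26.2 CPM in oil vapor animal 92 against 7.49 to 12.0 CPM. Dclk1 was high in oil vapor animal 89, at 51.6 CPM against 42 to 44.8 CPM in the others. Klhl31 was high in oil vapor animal 91, at 6.33 CPM against 2.33 to 3.38 CPM in the others. Cdh5 was high in air animal 86, at 705 CPM against 565 to 610 CPM in the others. Gzmm was low in air animal 86, at 5.04 CPM against 10.2 to 15.1 CPM in the others. Nusap1 was low in oil vapor animal 93, at 1.98 CPM against 3.26 to 4.16 CPM in the others. Fbxo21 was low in oil vapor animal 94, at 30.2 CPM against 36.6 to 39.6 CPM in the others. Fpr3 was high in air animal 87, at 4.65 CPM against 1.81 to 2.46 CPM in the others.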

How the results depend on the processing

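Between oil vapor and air, no paired analysis was possible because their animal numbers are all different and no label pairs them. Across schedules, a block of the 24 rank-matched pairs of animals, chosen after seeing the data, gave 0 called genes for 16 minus 1 exposure days (smallest adjusted p 0.615 in edgeR).

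The number of genes called for oil vapor against air at 28 days, 0, was also 0 without a filter on low counts, with RLE size factors, limma-voom with sample weights, tissue scores as covariates, 1 surrogate variable, genes of other tissues removed, a minimum of 1.5-fold, all 48 libraries, each of the 12 animals left out, and, chosen after seeing the data, without robust shrinkage, without air animals 82, 84 and 86, and over genes with a matched-library r of at most 0.5. It was 21 with DESeq2, 10 without the library of animal 43 and 57 with only the 12 libraries compared. The unadjusted count ran from 386 genes without animals 82, 84 and 86 to 1699 with limma-voom, outside the 1.5-fold minimum, which left 94. For 28 days minus 1 day the count of 0 became 47 with DESeq2, 10 with limma-voom and 3 without animal 43, and 0 to 1 when single animals were left out. For 16 minus 1 exposure days it became 2 with limma-voom and stayed 0 when single animals were left out. The causes were not tested.

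Among single genes, 2799 of the 2876 values under an alternative kept direction and side of the threshold and 28 passed it under the alternative. The remaining ones turned direction. With tissue scores as covariates these log2 differences were Trim72 0.0637, Klhl31 0.0221, Casq2 0.0297, Sftpc -0.0337, Sftpa1 -0.00294, Ager -0.169, Cyp1a1 -0.0381, Bst2 -0.326, Fam13a -0.0895, Rph3al -0.178, Hbb 0.472, Myl7 0.568, Nkx2-1 -0.0196, Fcgbp -0.169, S100a9 0.237, S100a8 0.417, Cd247 0.178, Cd79b 0.0203, Fosb -0.0984, Ugt1a6 -0.0407, Me1 0.221, Uqcrc1 0.0656, Ndufb3 0.0702, Rps23 0.21, Nusap1 0.107, Gja5 -0.0119. With 1 surrogate variable they were Ager -0.0104, Bst2 -0.0481, Enpp3 -0.0355, Rph3al -0.0533. Without air animals 82, 84 and 86 they were Scgb1a1 0.0567, Rph3al -0.122, Myl7 0.488. Over the fits with 1 animal left out, Bst2 from -0.0428 to 0.104, Fam13a from -0.0628 to 0.108, Myl7 from -0.564 to 0.321, Rph3al from -0.0478 to 0.117 and Scgb1a1 from -0.0873 to 0.0126 crossed 0. Of the list medians 821 values moved by less than the spread between animals and 29 by more, most of these under the tissue scores, which are themselves built from transcripts that differ between the groups.

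At 4290720 to 6545860 counts a library, genes near the floor of 0.458 to 0.699 CPM, such as Cyp1a1, had intervals too wide to bound a difference. The spread was estimated from 24 libraries that vary up to many-fold in blood, heart and liver transcripts.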

Other observations

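Rpl36al, a ribosomal protein gene named after its values were seen, was split between animals. The 6 air animals lay between 0.960 and 14.8 CPM with a median of 8.11 CPM, and the 6 oil vapor animals between 0.921 and 2.34 CPM. It has a close paralog, Rpl36a, and its matched-library r was -0.02.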
